A study of Mus musculus with 13 samples.

Results

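The genes described here encode the actin, tubulin and keratin cytoskeleton of mouse liver, with the proteins that bind actin and the transcription factor Srf. They were chosen by gene symbol, as the rows of the liver table whose symbol matched a fixed set of 43 names. Of these, 39 were listed among the 11779 genes of the table. Tmsb10, Tuba1a, Tubb2b and Vil1 were not among the genes listed and are not analysed here.

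RNA was sequenced from the livers of Balb/c mice 5 days after an injection of antisense oligonucleotides (ASOs), short nucleic acids that cause the destruction of a matching transcript. A group of 3 mice was given a mix of ASOs against the long non-coding RNA LL35 (Falcor). Another 3 mice were given an ASO against firefly luciferase (Luc ASO), whose target a mouse does not have. The labels and the paper's main text give 5 ASOs in the LL35 mix, while its supplementary list of ASOs for mice names 4. All liver ASOs carried GalNAc, a sugar that directs them to hepatocytes through the asialoglycoprotein receptor, and no group without an ASO was among these samples. The dose of the LL35 mix was 150 mg/kg, which the labels state for each ASO and the methods state for the total. Ages are not given in the sources used here. The series also holds 7 libraries of AML12, a mouse hepatocyte cell line, 3 with Luc ASO and 4 with the LL35 mix on day 2, which are not analysed here.

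The value used for each liver gene is the authors' mean normalized count, a single mean over the compared livers of both groups. It carries no spread between mice, no replicate number and no value for either group, and the depth of the single libraries is unknown. No difference between LL35 ASO and Luc ASO livers is therefore given for any gene, and no test could be made. Every statement below concerns the level of a gene averaged over both groups of livers, and differences between genes carry no error. LL35 itself could not be checked from these values.

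Actin exists as single molecules and as filaments, and the balance between them is set by proteins that hold monomers, cut filaments, start new branches or bundle what has been built. Microtubules are built from pairs of alpha- and beta-tubulin, and keratin filaments from pairs of a type I and a type II keratin. In hepatocytes the actin cortex is dense around the bile canaliculus, the channel between neighbouring cells into which bile is secreted, and Krt8 with Krt18 is the keratin pair of these cells.

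Several of these genes have close copies, and the sequences show how alike the coding bases of some of them are. They do not show how many reads can be told apart. The first 60 coding bases of 3 sets of listed paralogs are shown 5′ to 3′, starting from the start codon, from GENCODE release M21 on GRCm38. Capitals mark the positions at which the members of a set differ. The start codon of Actb begins at chromosome 5, position 142905686 on the minus strand, and that of Actg1 at chromosome 11, position 120348091 on the minus strand.
Actb: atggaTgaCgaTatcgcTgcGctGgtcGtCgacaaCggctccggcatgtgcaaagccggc
Actg1: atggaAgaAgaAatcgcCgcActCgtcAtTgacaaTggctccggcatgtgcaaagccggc

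The 2 cytoplasmic actins differed at 9 of these 60 positions, and their whole coding sequences of 1128 bases were 88.7% identical. The coding sequences of the alpha-tubulins Tuba1b and Tuba1c were 97.9% identical, while Tuba4a was 85.0% identical to Tuba1b and 85.2% identical to Tuba1c. The beta-tubulins Tubb2a (chromosome 13, from 34077929 on the minus strand), Tubb4b (chromosome 2, from 25224590 on the minus strand) and Tubb5 (chromosome 17, from 35838053 on the minus strand) differed at 12 positions of the window.
Tubb2a: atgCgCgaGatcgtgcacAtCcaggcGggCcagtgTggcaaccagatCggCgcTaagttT
Tubb4b: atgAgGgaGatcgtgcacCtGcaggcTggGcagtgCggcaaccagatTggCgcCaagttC
Tubb5: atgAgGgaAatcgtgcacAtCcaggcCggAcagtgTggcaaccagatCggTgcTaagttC

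Their coding sequences were between 82.2% and 84.5% identical. The myosin regulatory light chains Myl12a (chromosome 17, from 70996880 on the minus strand) and Myl12b (chromosome 17, from 70977231 on the minus strand) differed at 4 positions here and were 96.5% identical over their 519 coding bases.
Myl12a: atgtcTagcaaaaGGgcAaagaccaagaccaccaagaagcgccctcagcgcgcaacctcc
Myl12b: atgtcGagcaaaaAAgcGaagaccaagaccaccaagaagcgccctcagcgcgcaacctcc

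The gene counting mode of STAR counts a read only when it maps to a single place and overlaps a single gene. The share of each gene's transcript sequence that also stands in another gene was therefore measured, as the percent of its distinct 50-base stretches found on either strand in a transcript of another annotated gene. For 9 of the 39 members no stretch was shared, and for 13 members over 20% of the stretches were. Tuba1b had the largest share of the members at 75.1%, with Tuba1c as the gene elsewhere in the genome that held most of them (53.6%). For Tuba1c the share was 52.7%, for Tubb2a 49.6%, of which 45.6% of all stretches stood in Tubb2b, and for Tubb4b 41.3%. Actg1 shared 37.4% of its stretches, mostly with Gm12715, and Krt8 shared 29.7%, mostly with the pseudogene Krt8-ps. For Tuba4a and Vcl the shared stretches lay almost all in a neighbour that overlaps the gene, Stk16 with 34.6% of the stretches of Tuba4a and Ap3m1 with 25.1% of those of Vcl. The counts of these genes are uncertain for that reason, and how many reads were lost or moved was not tested. An overlapping neighbour on the opposite strand would matter only if reads were counted without regard to strand. That setting is not given in the sources used here.

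**Figure D1:**
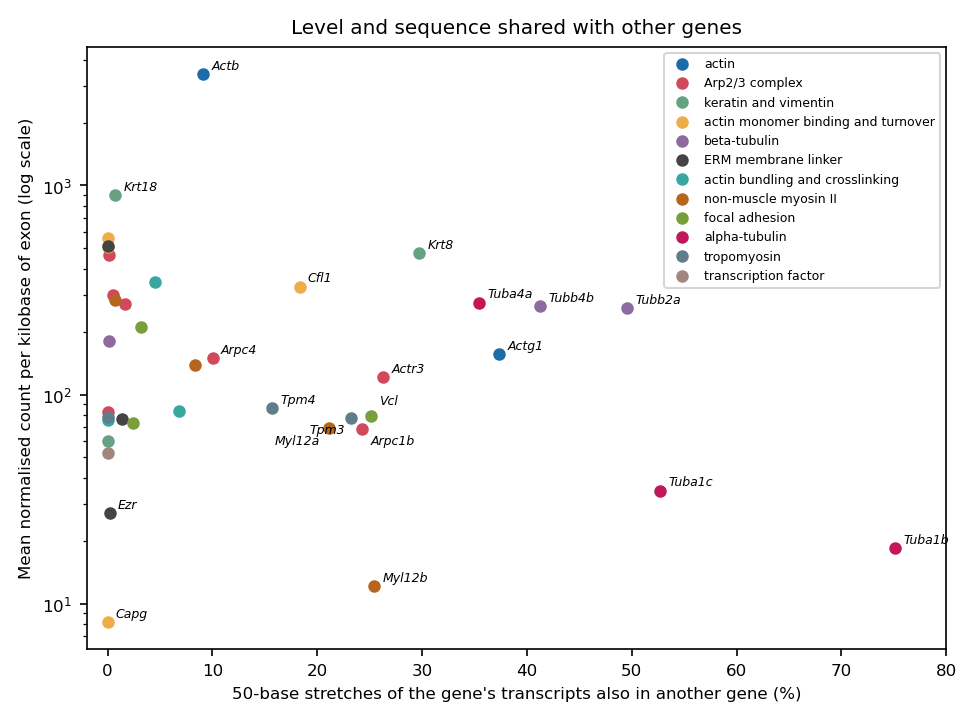
Level of each listed member (y axis, the authors' mean normalized count per kilobase of exon, log scale) against the percent of its 50-base transcript stretches that also stand in another gene (x axis). Each point is a gene, colored by role. Tuba1b and Tuba1c lie far to the right at low levels, and Actb stands highest with 9.12% of its stretches shared.

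Levels of different genes are compared below as the mean normalized count divided by the kilobases of the gene's exons in GENCODE, which gives the level per kilobase. On this scale the median member had a level of 138, and the median of all genes with a length was 51.5. Of the 39 members, 34 lay above that median and 5 below it, and 8 stood in the top 10% of all genes, which began at a level of 341. The median member stood at the 76.5th percentile. These genes were named because they are well known, so this rank describes them and was not tested. Together the members held 0.331% of the summed mean normalized count of the listed genes. The hepatocyte gene Alb, which encodes serum albumin, took far more of it, with 1.22e+06 normalized counts against 37367 for the members together. Alb was 134 times Actb, the highest of the members, without length. It was 153 times Actb per kilobase and 82.5 times per coding length. In whole liver, fewer cells of a type and less RNA per cell cannot be told apart.

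By role, the 2 actin genes held 31.8% of the summed level per kilobase of the members. The Arp2/3 subunits followed with 13.0%, the keratins with vimentin held 12.9%, and the proteins that bind monomers or turn filaments over held 12.6%. The beta-tubulins held 6.31% and the alpha-tubulins 2.94%. The cortex linkers ezrin, radixin and moesin held 5.50%, the bundling proteins 4.53% and myosin II 4.49%. Focal adhesion genes held 3.25%, tropomyosins 2.17% and Srf 0.468%. Sums of this kind grow with the number of genes in a role, so they describe the set and do not rank the roles.

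**Figure D2:**
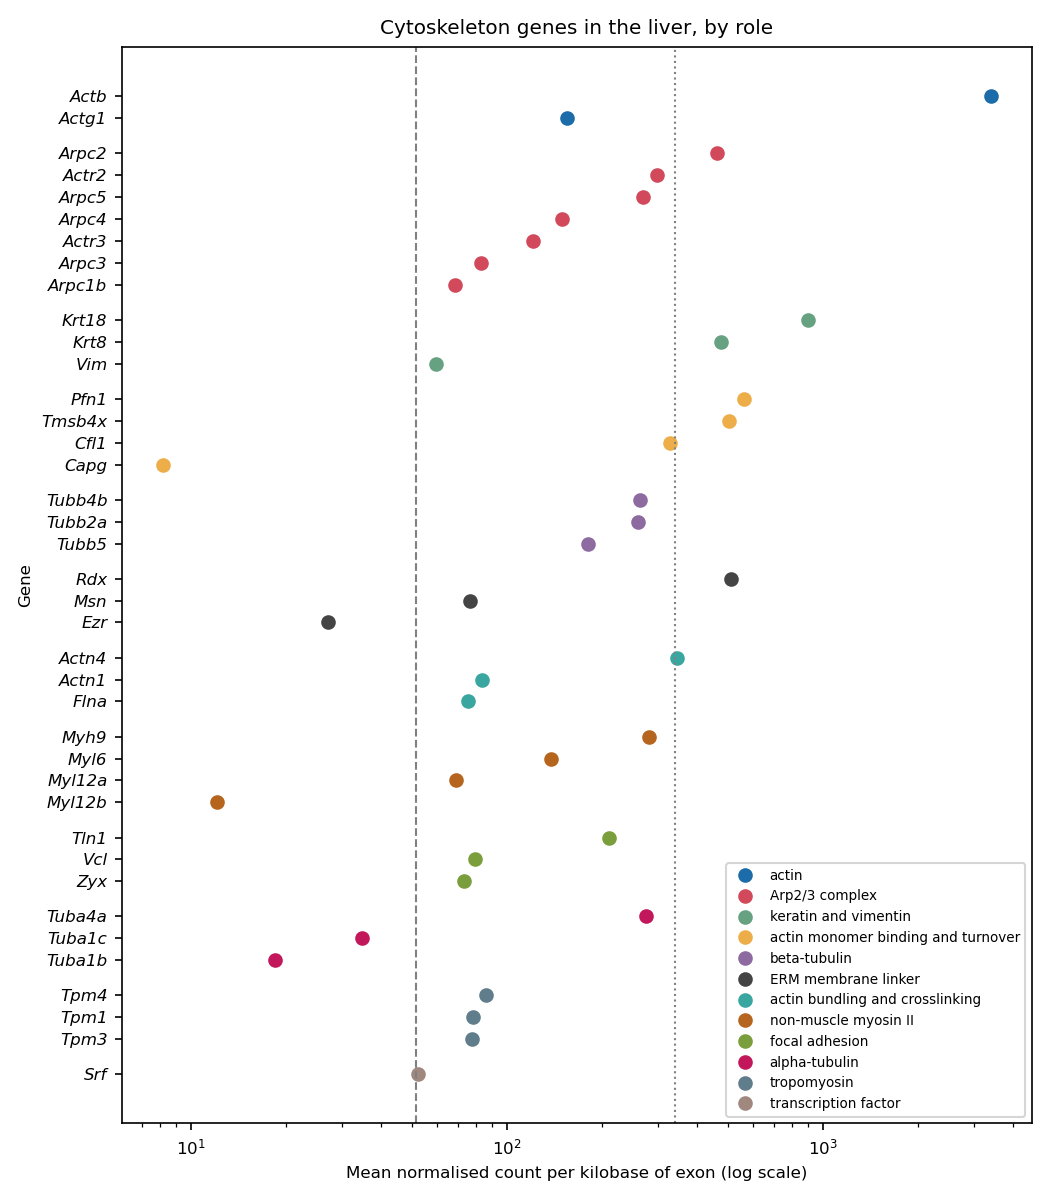
Level per kilobase of exon of the 39 listed members (x axis, the authors' mean normalized count over the compared livers per kilobase, log scale), one point per gene, grouped and colored by role. The dashed line marks the median of all genes at 51.5 and the dotted line the start of the top 10% at 341. Actb stands apart at 3399, and Capg is the lowest at 8.19.

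Almost all of the normalized count of the cytoplasmic actin genes was assigned to Actb. Actb, which encodes cytoplasmic beta-actin, averaged 9106 normalized counts, or 3399 per kilobase. Actg1, which encodes cytoplasmic gamma-actin, averaged 414, or 156 per kilobase. The level of Actb was 21.8 times that of Actg1, and 95.6% of their sum. With each gene scaled only by the length of the stretches it shares with no other gene, an alternative chosen after the data were examined, the ratio was 15.0 and the share of Actb 93.8%. Actg1 shared 37.4% of its stretches and Actb 9.12%. How many reads of each went uncounted was not tested, and the alternative leaves out only exact matches to annotated transcripts. Of the muscle actins, Acta2, the smooth muscle alpha-actin, was the only one listed, with a level of 15.1, and Actb was 225 times higher.

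Genes for proteins that bind actin monomers or turn filaments over also stood high, with the exception of Capg. Pfn1, which encodes profilin and hands monomers to growing ends, averaged 1355 normalized counts, with a level per kilobase of 564. Tmsb4x, which encodes thymosin beta-4 and holds monomers in reserve, had 693 and 505 on these scales. Cfl1, which encodes cofilin-1 and severs filaments, had 933 and 328. These genes stood between the 89.7th and the 93.9th percentile per kilobase. Without length the percentiles were lower, at 89.0 for Pfn1, 83.3 for Cfl1 and 77.3 for Tmsb4x. Capg, which encodes a capping protein best known from macrophages, was the lowest of all members, averaging 20.7 normalized counts, with a level of 8.19.

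The relatives of these proteins were read from lists of other cytoskeleton genes, and the pairs named here were formed after their values were seen. Dstn, which encodes destrin of the cofilin family, had a level per kilobase of 569.6, 1.74 times that of Cfl1 and 1.17 times without length, while the muscle cofilin Cfl2 had 153. Pfn1 was 98.7 times Pfn2, whose level was 5.71. The ratio without length was 67.0. Pfn2 and Capg averaged 20.2 and 20.7 normalized counts, close to 15.6, the lowest of any listed gene, so ratios to them rest on low counts. Gsn, which encodes gelsolin, had a level of 67.2 and was 8.20 times Capg, with a ratio of 10.2 when the genes were not scaled by length and 4.58 per coding length.

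The Arp2/3 complex starts actin branches and holds 1 copy of each of 7 subunits, and all 7 members named for it were listed. Their levels per kilobase were not equal. Arpc2 had 464, the actin-related subunit Actr2 had 299.5 and Arpc5 had 271. Arpc4 followed with 149.8 and Actr3, the other actin-related subunit, with 121. Arpc3 had 82.7 and Arpc1b had 68.7, so that the highest was 6.76 times the lowest. Arpc2 over Arpc1b was 2.69 without length, 3.37 per coding length and 5.12 with unshared sequence. Which subunits were highest and lowest changed with the scale, and without length the highest, Actr2, was 6.82 times the lowest, Arpc3. Arpc1b shared 24.3% of its stretches with other genes, and 16.6% of all its stretches stood in the overlapping Pdap1. Subunits with a relative in the lists differed in which gene was higher. Arpc1a had a level of 159, which was 2.32 times that of Arpc1b, although the ratio was only 1.17 without scaling by length. Arpc5l had a level of 57.8, and Arpc5 was 4.69 times higher, or 2.37 times without length.

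Among the proteins that bundle or crosslink filaments, Actn4 averaged 2125 normalized counts, with a level per kilobase of 347. Actn1, the other non-muscle alpha-actinin, had 462 and 83.5, and Actn4 was 4.16 times higher, with 4.60 when not scaled by length. Flna, which encodes filamin A, averaged 709.6 normalized counts, with a level of 75.5, and shared no stretch with another gene.

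Non-muscle myosin II pulls on actin filaments, and a molecule of it joins heavy chains with essential and regulatory light chains. Its heavy chain gene Myh9 had a mean normalized count of 3652, the second highest of the members before scaling by length, and a level per kilobase of 283. The other heavy chains were lower, Myh10 at 20.5 and Myh14 at 39.7, so Myh9 was 13.8 and 7.12 times higher, with 17.0 and 12.7 without length. Myl6, the essential light chain, had a level of 138. The regulatory light chains Myl12a and Myl12b had 69.2 and 12.1, a ratio of 5.70, and they share sequence with each other and with an overlapping gene model. Whether Myh9 or Myl6 is higher depended on the length used. Myh9 was 2.05 times Myl6 per kilobase of exon and 0.670 times Myl6 per kilobase of coding sequence.

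The tropomyosins, which lie along actin filaments, had levels close to each other per kilobase of exon, but not without scaling by length. Tpm4 had a level per kilobase of 86.2, Tpm1 of 78.5 and Tpm3 of 77.6. Their mean normalized counts were 190 for Tpm4, 509 for Tpm1 and 472 for Tpm3. No order among them is given, because Tpm4 held 35.6% of their sum per kilobase of exon and 16.2% without scaling by length. Tpm2, listed beside them, had a level of 5.56, and Tpm1 was 14.1 times higher, or 31.4 times without length. Tpm2 averaged only 16.2 normalized counts, close to the lowest of any listed gene.

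Talin, vinculin and zyxin join actin to integrins at focal adhesions. Tln1 averaged 2062 normalized counts with a level of 210.4, Vcl had 648 and 79.1, and Zyx had 394 and 73.2. Tln1 was 2.66 times Vcl per kilobase of exon and 1.33 times Vcl per kilobase of coding sequence. The second talin gene, Tln2, had a level of 14.4, and Tln1 was 14.7 times higher, or 7.83 times without length.

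Ezrin, radixin and moesin tie the actin cortex to the plasma membrane, and radixin is known as the main one of them at the bile canaliculus. Rdx averaged 2369 normalized counts, with a level per kilobase of 511, the fourth highest of the members. Msn had 484 and 76.4, and Ezr had 89.5 and 27.2. Rdx held 83.1% of the level of the family and was 6.68 times Msn and 18.8 times Ezr. These genes shared at most 1.39% of their stretches with other genes. The share of Rdx lay between 77.8% and 83.0% under the other ways of scaling.

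**Figure D3:**
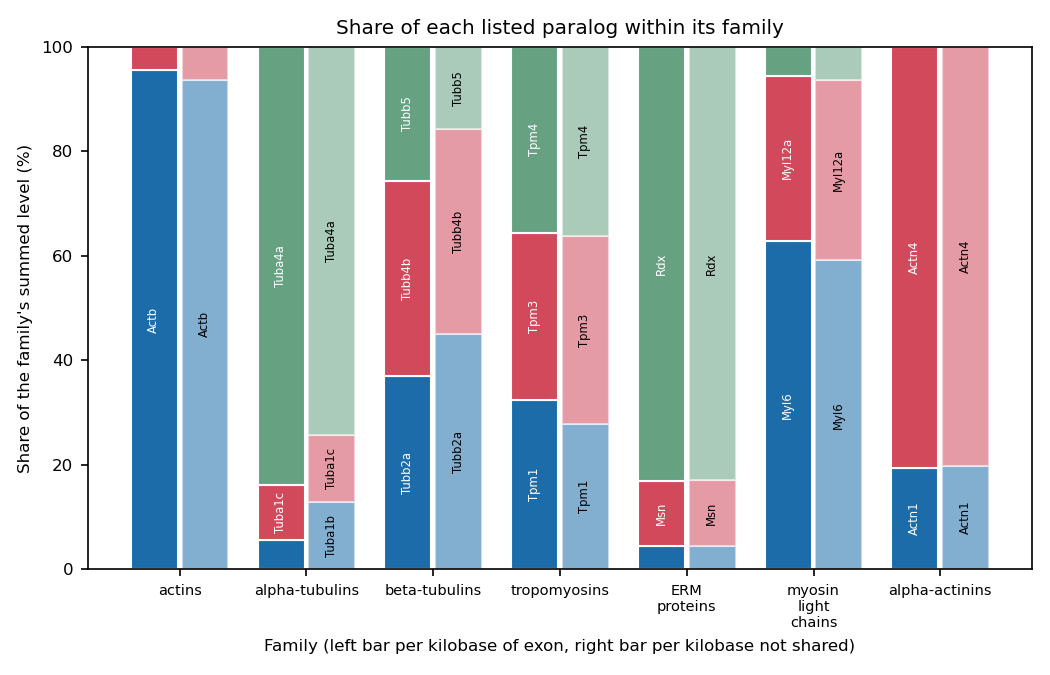
Share of each listed paralog in the summed level of its family (y axis, percent). For each family the left bar uses the level per kilobase of exon and the right, paler bar the level per kilobase of sequence not shared with another gene. Segments without a name are Actg1, Tuba1b (left bar), Ezr and Myl12b, and Actb, Tuba4a, Rdx and Actn4 each hold most of their family in both bars.

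Keratin transcripts stood above those of vimentin, the intermediate filament protein of mesenchymal cells and leukocytes. Krt18, the type I keratin of hepatocytes, averaged 1294 normalized counts, with a level per kilobase of 900, second to Actb on that scale. Without length Myh9, Rdx, Actn4, Tln1, Actr2 and Pfn1 also stood above Krt18, and per coding length Pfn1 did. Krt8, the type II partner of Krt18, had 932 and 476. Krt18 was thus 1.89 times Krt8, and 1.34 times when scaled by unshared sequence, with 1.39 without length. Vim averaged 283 normalized counts, with a level of 59.6. Krt8 was 7.98 times Vim, and Krt18 was 15.1 times Vim. Without length these ratios were 3.29 and 4.57, in the same direction. Des, the muscle-type intermediate filament protein also known from stellate cells, had a level of 13.8.

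Alpha-tubulin was led by Tuba4a, the isotype that is encoded without the final tyrosine. Tuba4a averaged 1019.8 normalized counts, with a level per kilobase of 276. Tuba1c had 79.5 and 34.7, and Tuba1b had 34.6 and 18.5. Tuba4a held 83.8% of the listed alpha-tubulins, and 74.3% when the genes were scaled by unshared sequence. On that scale it was 5.76 times Tuba1b in place of 14.9 times, and without length 29.4 times. Since Tuba1a is not analysed and most stretches of Tuba1b stand in other genes, the sum of the alpha-tubulins is not complete.

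Beta-tubulin was spread over 3 listed genes. Tubb4b averaged 551 normalized counts with a level of 264, Tubb2a had 419 and 260.3, and Tubb5 had 600.2 and 180.4. Their order turned with the scale. Tubb2a was 1.44 times Tubb5 per kilobase of exon, 2.86 times per kilobase of unshared sequence and 0.698 times without scaling. Tubb6 had a level of 29.9. The listed alpha-tubulins summed to 0.467 times the listed beta-tubulins. With unshared sequence the ratio was 0.501, per coding length 0.678 and without length 0.722. Both sums are incomplete, because Tuba1a and Tubb2b are not analysed and Tuba1b, Tuba1c, Tubb2a and Tubb4b share much sequence with other genes. The ratio therefore does not show an imbalance between the proteins, which pair 1 to 1.

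**Figure D4:**
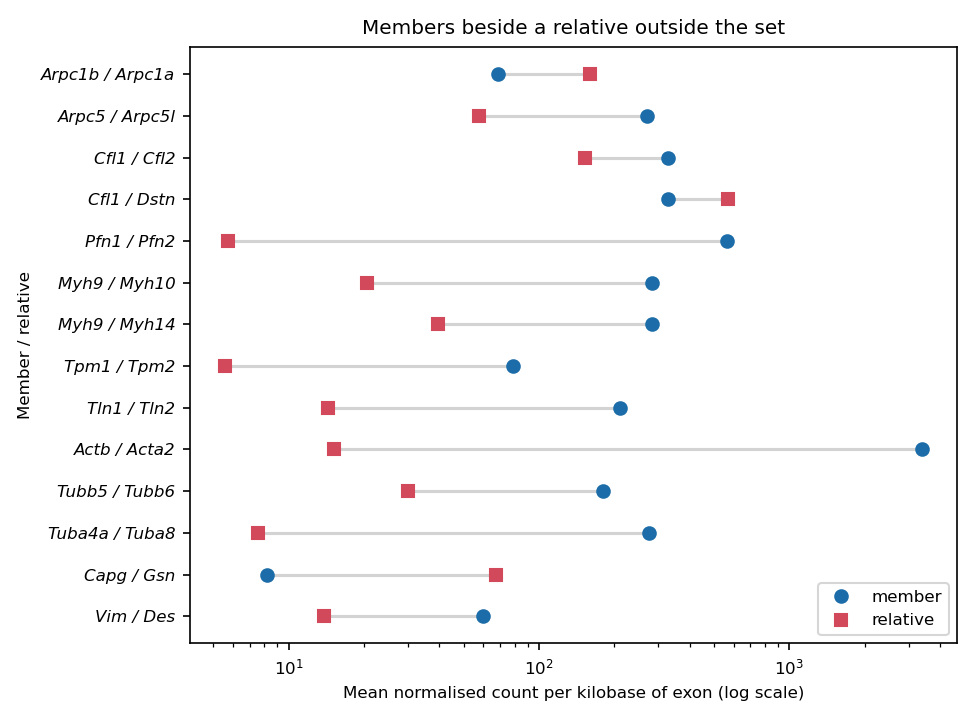
Level per kilobase of exon (x axis, log scale) of members (circles) and of a relative that is not a member (squares), joined by a line for each pair. The relative lies above the member for Arpc1a, Dstn and Gsn, and below it for the other pairs.

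Srf, the transcription factor that drives many actin and adhesion genes with coactivators that sense free actin, averaged 151 normalized counts, with a level of 52.3, near the median of all genes. Its coactivators Mrtfb and Mrtfa had levels of 93.2 and 31.9. SRF binds the CArG box, a 10-base motif read alike on both strands. Promoter windows of 300 bases, from 250 before to 50 after the start site, were taken from RefSeq on GRCm38.p6, and 38 of the 39 members were in that table, which had no entry for Actb. An exact CArG box stood in a window of 5 of these 38 members (13.2%). It stood in a window of 142 of the 9335 listed genes with a promoter (1.52%), and of 488 of all 27025 genes (1.81%). These shares were not tested, and a match is a description of the sequence, not of binding. Windows of 30 bases with the box in capitals are shown for these genes because they are the members in which the letters were found.
Srf, chr17:46556225-46556254, minus strand: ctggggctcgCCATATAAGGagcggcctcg
Srf, chr17:46556205-46556234, minus strand: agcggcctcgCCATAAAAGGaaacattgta
Actg1, chr11:120348566-120348595, minus strand: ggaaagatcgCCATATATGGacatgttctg
Myl6, chr10:128493040-128493069, minus strand: gctcttacttCCTTATATGGgcaggaccta
Vcl, chr14:20929161-20929190, plus strand: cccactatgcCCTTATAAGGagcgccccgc
Arpc4, chr6:113377863-113377892, plus strand: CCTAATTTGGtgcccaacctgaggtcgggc

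The boxes of Srf began 82 and 62 bases before the start site, that of Actg1 90 bases before it and that of Myl6 50 bases before it. Those of Vcl and Arpc4 lay farther away, at 227 and 250 bases. The levels of these genes ranged from 52.3 for Srf to 156 for Actg1, so none of them stood in the top 10% of all genes.

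The wider machinery was read from 10 lists of other cytoskeleton genes with 117 names, of which 99 were listed. Their median percentile was 59.9 per kilobase of exon, and 6 of them stood in the top 10%. The chaperonin that folds new actin and tubulin stood high. All 13 genes of its list, which also holds the tubulin cofactors, were listed, with a median percentile of 84.0, and Cct2 and Cct5 had levels of 486 and 484. Among 14 genes for further Arp2/3 subunits, Arp2/3 activators or other filament builders, Brk1 and Nckap1, both of the WAVE complex, had levels of 335 and 269. Among the 10 integrin linkers, Itgb1, the beta-1 integrin, had 518 and Fermt2, a kindlin, had 214. Among the 26 listed actin regulators, Dstn was followed by Cap1 with 230.5. Dync1h1, the dynein heavy chain, led the 9 listed microtubule-associated genes with 299.7, ahead of the kinesin Kif5b with 117. Of the intermediate filament proteins and their linkers, 8 of 13 were listed, led by Plec with 149.5 and Dsp with 120.1, while the bile duct keratins Krt7 and Krt19 were not listed. Of 10 other tubulins 4 were listed, led by Tubg1 with 72.4 and Tubb6.

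**Figure D5:**
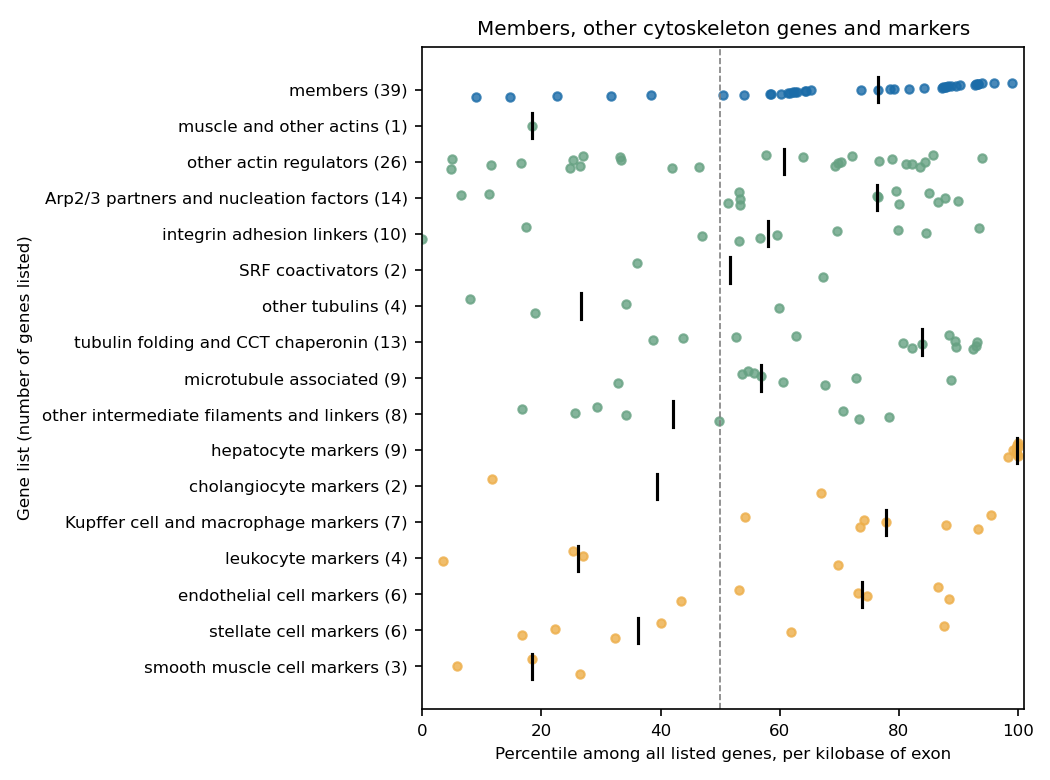
Percentile among all listed genes, per kilobase of exon (x axis), of the members, 9 lists of other cytoskeleton genes and 7 lists of cell type markers. Each point is a gene, the black bar is the median of the list, the dashed line is the 50th percentile and the number listed is in brackets. The hepatocyte markers lie at the right edge, and the members have their median at 76.5.

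Markers of the cell types of the liver were read beside the members. All 9 hepatocyte markers were listed, with a median percentile of 99.8, led by Alb and Apoa1, as the label of the tissue states. All 7 macrophage markers were listed with a median level per kilobase of 146, and Clec4f, a receptor of Kupffer cells, had 791, which is 13.3 times Vim, or 6.91 times without length. All 6 endothelial markers were listed with a median level of 123, led by Clec4g with 289 and Stab2 with 248. All 6 stellate cell markers had a median of 32.4, led by Dcn with 265 and Reln with 76.8. Smooth muscle markers were low, with 3 of 4 listed and a highest level of 21.9 for Tagln, ahead of Acta2, and Cnn1 was not listed. Of the 6 bile duct markers only Spp1 and Sox9 were listed, with levels of 91.9 and 9.94, and Krt19, Krt7, Epcam and Cldn7 were not. Among leukocyte markers, 4 of 5 were listed with a median level of 21.7, led by Lcp1 with 103 and Coro1a with 22.4, and Cd79a was not listed. Lcp1 and Coro1a also stand in the list of actin regulators. Which cells the transcripts of Vim, Msn, Tmsb4x, Capg or Flna came from was not tested.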

How the data were processed

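Liver RNA was made into libraries after depletion of ribosomal RNA with a directional kit. The authors aligned reads with STAR 2.5.3a, counted them on Ensembl genes, and normalized them by the RLE method in DESeq2. The genome build, annotation release and strand setting are not given in the sources used here, and the read length is not clear from them. The value used from the authors' deposited table is the mean normalized count, a signal averaged over the compared livers. Its lowest value was 15.6 and its median 235. Another 5 columns hold the authors' own comparison (fold change, its error, a statistic, and raw and adjusted p-values) and were not used, so no groups were compared and no test was run. The depth per library is unknown, so no precision is given. The AML12 libraries were not analysed.

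Exon lengths came from GENCODE release M21, where 11754 of 11779 identifiers matched. Levels per kilobase, percentiles and shared 50-base stretches were computed with Python 3.11.15, pandas 2.3.3 and numpy 2.4.6, and coding sequences were aligned with Biopython 1.88. Only the percentiles after scaling by length and the search for shared stretches were checked on simulated data, without noise. The other steps were not checked in this way. The members and lists were chosen with earlier results of these data known. Every listed member is named, with the 2 highest genes of each other list, except for 1 list, 1 relative and 1 sequence that are not reported here. Relatives of members were paired once values had been seen. The alternatives varied the gene length (coding length from GENCODE, since no protein table was used here), the lowest count and the reference genes.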

Additional observations from a re-analysis of the deposited data

How the results depend on the processing

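Of 77 values recomputed under another setting, for 20 results, 62 lay within 1.5 times the reported value and 15 did not. Percentiles and shares have an upper limit, and those near it could not rise by that much. The tally is therefore no measure of how stable the results are. Among those farther away, Myl6 over Myh9 was 0.488 as reported, 0.120 without length and 1.49 per coding length. The share of Tpm4 in the tropomyosins was 35.6% as reported and 16.2% without length. The cause of these shifts was not tested, apart from the change of scale itself. The median percentile of the members was 70.2 without scaling by length, 79.3 with the longest transcript, 75.5 with coding length, 75.0 among genes averaging at least 50 normalized counts and 76.6 among protein-coding genes. The highest member was 439 times the lowest without length, 320.4 with the longest transcript, 409 with coding length and 456 with unshared sequence, against 415 as reported. Actb held 95.7% of the actins both without length and per coding length, as well as with the longest transcript, and 93.8% with unshared sequence. Krt8 over Krt18 was 0.529 as reported, 0.720 without length, 0.622 per coding length and 0.746 with unshared sequence. The median percentile of the other cytoskeleton genes was 68.7 without length, close to that of the members on that scale, and 61.6 with a count of at least 50. That of the hepatocyte markers was 99.9 without length. Actb was the highest member on every scale, and 14 members moved by over 5 places without length or with coding length. The alternative of unshared sequence was chosen after seeing the data. No paired analysis was possible because the table holds no value for single mice, and for that reason no mouse could be left out in turn.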
